A study of Mus musculus with 15 samples.

Results

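Exc_14 is 1 of 26 excitatory neuron clusters that the authors defined in the mouse prefrontal cortex (PFC), the frontal cortical area that takes part in reward, motivation and executive control. Its members were taken here as every cell that carries this cluster name in the deposited cell annotation. There were 979 of them among 35360 retained cells and 20377 cells of excitatory clusters, 750 from adult mice and 229 from P21 mice. Cortical excitatory neurons release glutamate and are sorted by layer and by where their axons go. Intratelencephalic neurons project within the cortex and to the striatum, extratelencephalic neurons of layer 5 to the brainstem and spinal cord, and corticothalamic neurons of layer 6 to the thalamus. Near-projecting neurons and the remnant subplate neurons of layer 6b form smaller classes.

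All libraries came from male C57BL/6N mice, and no transgene or deletion was involved. The adult mice, labelled 8 to 10 weeks old and called P60 by the study, had learned to self-administer saline or cocaine through an intravenous catheter. They were taken at the end of the maintenance phase (2 saline libraries, P60 libraries 2 and 3, and 2 cocaine libraries, 1 and 4), after 48 h of withdrawal (saline 5 and 7, cocaine 6 and 8) or after 15 days of withdrawal (saline 11 and 12, cocaine 9 and 10). The 3 P21 libraries came from mice of 3 weeks that the labels give no treatment. By the methods each library pooled the tissue of 2 mice, and 4 mice were used at P21. By these counts the 3 P21 libraries cannot all hold different mice, and which of them share animals is not stated. The tests by age treat the 3 P21 libraries as independent, so their p-values may be too small. The tissue field of the labels names the nucleus accumbens where the titles and source names say PFC. A library was the unit of replication throughout, so the p-values measure the spread between pooled libraries. No library held both ages, so age and the handling of a library cannot be told apart. The authors had given P21 cells the name of the P60 cluster they correlated with most often, which ties the P21 members to the adult definition.

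The libraries held 1055 to 4439 retained cells, with 10 (P60 library 2) to 132 (P60 library 11) Exc_14 cells each and 187712 to 2398800 UMIs summed over those cells. A UMI is a molecular identifier that counts each captured RNA molecule once. No pair of libraries shared more than 27 barcodes. In no pair did more than 3 of the shared barcodes belong to an Exc_14 cell, and 1 barcode was an Exc_14 cell in both. Levels are given as CPM, the counts of a gene per 1000000 UMIs of the Exc_14 cells of a library, without mitochondrial and ribosomal protein genes, and ± is the SD over libraries unless said otherwise.

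The excitatory identity held in each library. The summed level of the excitatory markers was 4104 to 5417 CPM in the 6 saline libraries, 4139 to 4766 CPM in the 6 cocaine libraries and 3425 to 3693 CPM in the 3 P21 libraries. Slc17a7, the vesicular glutamate transporter of cortical neurons, stood at 325 to 515 CPM at P60 and at 801, 424 and 414 CPM in P21 libraries 1 to 3. Inhibitory neuron markers summed to 1.498 to 76.9 CPM in saline, 5.63 to 42.8 CPM in cocaine and 523 to 1250 CPM in P21 libraries, and nearly all of the P21 sum was Npy, described below. Without Npy the other 7 inhibitory markers summed to 1.498 to 15.1 CPM in saline, 0 to 15.3 CPM in cocaine and 19.8 to 53.3 CPM in P21 libraries. Of the 229 P21 cells, 12 carried another class in the authors' annotation. Oligodendrocyte markers were higher at P21 as well, 386 to 726 CPM against 78.9 to 183 CPM in saline libraries, and endothelial markers stood at 74.3 to 136 against 17.7 to 47.9 CPM. Microglial markers were at 14.5 to 169 CPM at P21 and 4.49 to 22.3 CPM in saline libraries. Astrocyte markers were near 0 at both ages, 8.41 to 31.0 CPM at P21 and 1.498 to 23.6 CPM in saline libraries, with Gfap at 0 in every P21 library.

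Ucma, which encodes a secreted Gla-rich protein first known from cartilage, was the gene that stood furthest above the other clusters in Exc_14. Its level was 47.6 ± 29.1 CPM over the 12 P60 libraries, and the next cluster, Exc_24, had 19.3 CPM. Clusters had been formed from the expression of these same cells, so the levels that set Exc_14 apart are given as a description and were not tested. Its gene lies on chr2:4897168-4906794, plus strand, in mm9, the build the authors aligned to. Of the named genes, Npy and Dmkn had the largest fitted log2 falls between P21 and P60. The RefSeq start regions (250 bases before to 50 after the start, GRCm38.p6, plus strand) are printed for Ucma, Npy and Dmkn. Their positions are chr2:4975872-4976171 for Ucma, chr6:49822460-49822759 for Npy and chr7:30763506-30763805 for the Dmkn start used, 1 of 3 listed. Capitals mark CAGATG on either strand, the letters of an E-box of the kind that neuronal basic helix-loop-helix factors recognise. They occur in 5635 of 32851 mouse start regions of this length, or 17.2%, and a match is a description of the letters only.
Ucma: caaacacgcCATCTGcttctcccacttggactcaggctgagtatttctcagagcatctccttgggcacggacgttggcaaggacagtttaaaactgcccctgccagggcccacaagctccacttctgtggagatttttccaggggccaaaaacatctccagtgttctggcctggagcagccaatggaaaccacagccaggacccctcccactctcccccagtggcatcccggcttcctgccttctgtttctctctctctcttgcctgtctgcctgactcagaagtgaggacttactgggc
Npy: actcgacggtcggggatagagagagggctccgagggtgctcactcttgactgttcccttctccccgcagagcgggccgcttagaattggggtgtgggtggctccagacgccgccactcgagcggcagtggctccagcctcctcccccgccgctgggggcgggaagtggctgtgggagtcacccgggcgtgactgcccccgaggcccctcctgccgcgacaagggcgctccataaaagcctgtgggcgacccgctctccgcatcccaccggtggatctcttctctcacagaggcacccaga
Dmkn: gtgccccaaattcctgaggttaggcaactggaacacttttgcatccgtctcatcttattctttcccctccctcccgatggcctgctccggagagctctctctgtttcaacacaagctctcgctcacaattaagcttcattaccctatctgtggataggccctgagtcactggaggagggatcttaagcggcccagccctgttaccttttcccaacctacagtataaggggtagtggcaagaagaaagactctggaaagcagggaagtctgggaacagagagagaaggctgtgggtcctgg
The Ucma region held 1 match, read as CATCTG on the strand shown, and the regions of Npy and Dmkn held none.

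In P60 libraries 1 to 12 Ucma stood at 9.30, 0, 37.4, 64.1, 76.4, 86.6, 96.2, 37.2, 52.3, 38.0, 33.3 and 40.8 CPM. The library without a Ucma UMI was the one with 10 cells, where the limit of 3 counts corresponds to 17.7 CPM. The level exceeded that of Exc_24 in 11 of the 11 libraries that held at least 10 cells of both clusters. At P21 it was 80.3, 35.6 and 56.1 CPM, within the P60 range. A Ucma UMI was found in 36.1% of P60 Exc_14 cells, 28.4% of P21 Exc_14 cells, 15.7% of P60 Exc_7 cells and 6.82% of P60 cells of all other excitatory clusters, against 0.112% of endothelial cells, which should lack it. After thinning all cells to 2000 UMIs these shares came to 7.20%, 10.5%, 2.62%, 1.20% and 0.0842%. Ucma was thus higher in Exc_14 without being limited to it, and most Exc_14 cells had no Ucma UMI at these depths.

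The other leading genes were shared with 1 or a few clusters, most often Exc_7. Among secreted and surface proteins, Figf, the growth factor VEGF-D, stood at 162 ± 36.5 CPM in Exc_14 and 176 CPM in Exc_7, and the extracellular glutathione peroxidase Gpx3 at 82.4 ± 26.5 and 73.2 CPM. Nell1, a secreted protein with EGF-like repeats, stood at 73.0 ± 20.2 CPM, with Exc_25 next at 65.5 CPM, and Ntng1, the axonal adhesion molecule netrin-G1, at 31.5 ± 6.87 CPM, with Exc_26 next at 28.1 CPM. The glycoprotein Cd24a, known from immature neurons, reached 39.5 ± 15.7 CPM. Its mean over libraries was 48.6 CPM in Exc_21, although Exc_21 lay below Exc_14 in 10 of 12 libraries. For each of these 5 genes the level in the neighbouring cluster named differed from that in Exc_14 by less than 1 SD over libraries.

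Among enzymes, Nnmt, which methylates nicotinamide, stood at 52.5 ± 10.7 CPM (Exc_7 47.1 CPM), and Cmbl, a hydrolase, at 56.4 ± 10.9 CPM (Exc_12 49.997 CPM). The neuronal calcium sensor Hpcal1 stood at 274 ± 75.1 CPM, below 428 CPM in Exc_7, and the copine Cpne7 at 58.6 ± 13.1 CPM against 72.5 CPM. The G protein subunit Gnb4 was highest in Exc_14, 119 ± 21.8 CPM with Exc_12 next at 101 CPM, and Rgs12, which speeds GTP hydrolysis by G protein subunits, stood at 51.7 ± 14.1 CPM, below 61.1 CPM in Exc_13. The vesicle GTPase Rab3b, 103 ± 41.6 CPM, and the long non-coding RNA Gm2694, 72.0 ± 19.3 CPM, each had 3 clusters above them. Tubb2b, a tubulin of growing neurons, was at 115 ± 20.02 CPM, beside 117 CPM in Exc_7.

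By the ratio to the next cluster alone, Meig1 came after Ucma, with 41.6 ± 10.7 CPM against 26.6 CPM in Exc_2, a ratio of 1.54 where that of Ucma was 2.39. Obfc2a, a single-stranded DNA-binding protein gene, followed with 28.3 ± 11.9 CPM (Exc_7 22.0 CPM), ahead of the RNA-binding protein gene Elavl2 with 225 ± 37.6 CPM (Exc_24 190 CPM). Nme1 and Gm10076 were also named by this ratio, but the 3′ ends of these genes nearly match those of other genes, so their counts are uncertain.

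Several genes that define other excitatory classes were nearly absent. Tshz2, a zinc finger gene of near-projecting neurons, stood at 0.772 CPM in Exc_14 against a mean of 95.9 CPM over the other clusters and 2099 CPM in Exc_21. Ddit4l was at 0.651 CPM against a mean of 52.0 CPM, Lypd1 at 1.73 against 64.8 CPM, and Ccnd2, a cyclin gene, at 4.99 against 95.8 CPM. Rprm, high in corticothalamic neurons, stood at 9.86 CPM where the other clusters averaged 312 CPM. The upper-layer homeobox gene Cux2 was at 4.68 against 60.6 CPM, and the gene for the secreted peptide GRP, Grp, at 11.7 against 140.6 CPM. Cplx2, a regulator of vesicle fusion, and Alcam, an adhesion molecule, were low rather than absent, at 24.7 against 285 CPM and 19.8 against 123 CPM. Several of these lows were shared with clusters much like Exc_14. Tshz2 was at 0.768 CPM in Exc_12, Ddit4l at 0.676 CPM in Exc_12, Rprm at 10.5 CPM in Exc_15 and Cplx2 at 26.5 CPM in Exc_16. Ccnd2 (18.0 and 117 CPM) and Grp (144 and 75.2 CPM) were higher in Exc_7 and Exc_16 than in Exc_14. For Cux2, Exc_14 ranked 16 of 26 clusters. Its level was lower in Exc_12 (0.907 CPM) and Exc_25 (1.58 CPM) and higher in Exc_7 (19.9 CPM) and Exc_16 (69.3 CPM). The mean for Rprm included 2212 CPM in Exc_19.

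**Figure D1:**
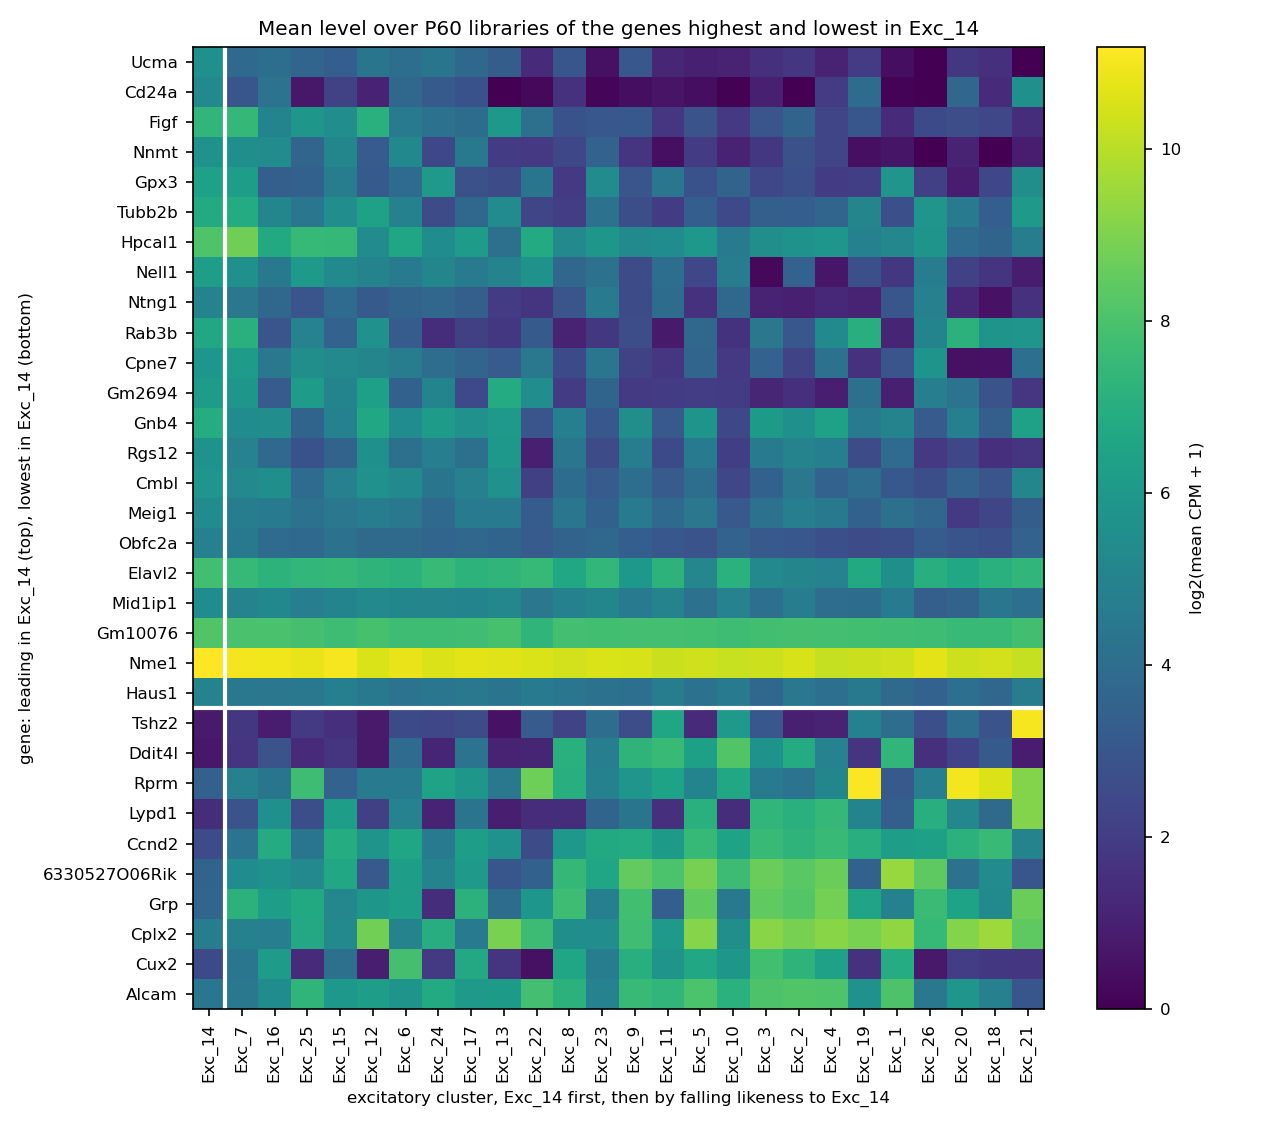
Heat map of log2(mean CPM + 1) over the P60 libraries for 22 leading genes of Exc_14 (upper rows) and 10 genes low in it (lower rows), with Exc_14 in the leftmost column and the other 25 excitatory clusters ordered by falling similarity to it. Ucma is brightest in Exc_14, most other leading genes are shared with Exc_7, and Tshz2 and Ddit4l are dark in Exc_14.

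The layer and projection markers did not place Exc_14 in 1 class without remainder. Markers of extratelencephalic neurons were low, with Pou3f1 at 0.581 CPM, Fam84b at 0 and Bcl11b at 12.8 CPM, and Crym, at 113 CPM, ranked 21 of 26 clusters. Corticothalamic markers were low as well, with Foxp2 at 1.59 CPM (172 CPM in Exc_20), Syt6 at 1.79 CPM and Tle4 at 5.73 CPM, although Ntsr1 ranked 2 at 9.80 CPM. Of the layer 6b markers, Nxph4 and Moxd1 were at 0 and Cplx3 at 2.51 CPM, and the near-projecting markers Trhr and Nxph1 stood at 3.34 and 0.565 CPM.

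Markers of layer 5 intratelencephalic neurons were present at middling levels. Rspo2, which augments Wnt signalling, stood at 57.8 CPM and ranked 4 (Exc_13 64.7 CPM), and Parm1 ranked 6 at 22.8 CPM. Rorb was at 41.9 CPM and Deptor at 22.0 CPM. Fezf2, which was kept in this list although it is best known as a selector gene of extratelencephalic neurons, ranked 14 at 27.1 CPM. Etv1, whose 3′ end resembles that of Gm5454, was at 45.8 CPM against 197 CPM in Exc_7 and 705 CPM in Exc_21. Among layer 6 intratelencephalic markers Cpne7 ranked 2 at 58.6 CPM, Osr1 ranked 3 at 4.58 CPM (Exc_12 34.4 CPM) and the kappa opioid receptor gene Oprk1 ranked 3 at 9.31 CPM (Exc_13 78.1 CPM). Car3 and Ntng2, which mark a deep claustrum-like group, were at 0, while Gnb4 of that list ranked 1 at 119 CPM, as given above, and Lxn and Gng2 ranked 3 and 4 at 70.6 and 213 CPM. Cux2 and Calb1 of layer 2/3 were at 4.68 and 17.3 CPM, and Cdh13, an adhesion gene, ranked 4 at 222 CPM.

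Receptors for modulators of reward circuits differed in level. Cnr1, the cannabinoid receptor gene that acts at presynaptic terminals, was highest in Exc_14 by mean, at 279 ± 32.3 CPM, but Exc_15 (257 CPM) and Exc_7 (249 CPM) lay within 1 SD. The dopamine receptor gene Drd1a stood at 18.7 ± 5.38 CPM and ranked 3, with Exc_12 at 27.8 CPM and Exc_7 at 15.4 CPM. Drd2 was at 2.51 CPM, although it ranked 2, and the serotonin receptor gene Htr2c at 0.0531 CPM. Of the channels, the sodium channel gene Scn1a (21.9 ± 4.92 CPM, median of the others 46.8 CPM) was lower in Exc_14 than in any other cluster. Among glutamate receptor genes Grin3a ranked 2 at 28.3 CPM, while Grin1 and Grin2a ranked 23 and 24 at 63.4 and 31.3 CPM.

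Over 9707 genes, the mean P60 profile of Exc_14 correlated most with that of Exc_7 (Pearson's r = 0.985), then with Exc_16 (0.973), Exc_25 (0.972), Exc_15 (0.972) and Exc_12 (0.968), and least with Exc_21 (0.891). These values are across genes, which are no independent replicates, and the profiles come from the same libraries. The P21 profile of Exc_14 correlated most with P60 Exc_14 (0.962), then with Exc_12 (0.9497) and Exc_7 (0.9485). Cell by cell, 587 of 750 P60 members (78.3%) and 161 of 229 P21 members (70.3%) were closest to the P60 mean of Exc_14 over 1500 genes. Of the other P60 members 78 were closest to Exc_7, 34 to Exc_24 and 26 to Exc_12. At P21 the order was different, with 36 members closest to Exc_12 and 7 to Exc_7. The median cell had a UMI of 9 of the 15 leading genes at P60 and of 8 at P21, against 8 in Exc_7 and 2 in the other excitatory clusters. These genes were chosen for their P60 levels in Exc_14, and the cells had been named from their expression. The counts and the shares of closest cells are therefore a description only. The counts of leading genes were not thinned to equal UMIs.

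The share of Exc_14 among the excitatory neurons was not shown to differ by age or treatment. The share was 3.12, 5.84, 4.09, 2.94, 5.17 and 6.82% in the saline libraries 2, 3, 5, 7, 11 and 12, with a mean of 4.66 ± 1.55% (SD, n = 6). It was 2.26, 5.42 and 4.67% in P21 libraries 1 to 3 (4.12 ± 1.65%, n = 3), and the low P21 library has an exact 95% interval of 1.71 to 2.92% that covers counting error only. The P60 mean was 0.544 percentage points above that of P21 (two-sided exact permutation test over libraries, p = 0.631, adjusted over 8 tests 0.889). Without P21 library 1 the difference turned to -0.387 points. Cocaine libraries averaged 5.68 ± 0.934% (n = 6), 1.02 points above saline (exact permutation within time points, p = 0.241, adjusted 0.481), a difference of 1.36 points at maintenance, 2.74 at 48 h and -1.04 at 15 days.

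Exc_14 cells were deeply sampled for excitatory neurons, with a median of 17335 UMIs over P60 cells against 13405 in the other excitatory clusters and 17612 in Exc_7. The median per library averaged 17436 ± 1023 UMIs in saline libraries and 10505 ± 2801 at P21, where libraries 1 to 3 had 13708.5, 9286.5 and 8520. The difference of 6931 UMIs reached the smallest p the 84 splits allow (exact permutation, p = 0.0119, adjusted 0.0317). These splits count the P21 libraries as independent, although they may share animals. The mitochondrial share of a cell's UMIs was 2.57 ± 0.173% in saline libraries and 4.01 ± 0.425% at P21, with the same p. Cocaine and saline libraries differed by 424.5 UMIs (exact permutation, p = 0.741, adjusted 0.889). Fewer molecules captured per cell and less RNA per cell cannot be told apart here.

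Between P21 and P60 the Exc_14 neurons changed in many genes, and more genes were called lower than higher. The comparison asks how these cells differ between the adult saline mice and juvenile mice, and it sets the 6 saline libraries against the 3 P21 libraries. By the methods the saline mice had been food restricted, trained for food, catheterised and had self-administered saline. The labels give the P21 mice no treatment, so age and this history cannot be told apart. Genes of axon growth and of the immature neuron (Nnat, Marcksl1, Cd24a, Tubb2b), immediate early genes (Junb, Fos, Nr4a3) and the neuropeptide genes Npy and Penk fell, while Ass1, Gstt1, Tpd52l1 and Id2 rose. Of 7546 genes tested, 1036 were called (13.7%) at an adjusted p under 0.05 and a change over 1.5-fold, 406 higher (5.38%) and 630 lower (8.35%) at P60, by edgeR's quasi-likelihood test with Benjamini-Hochberg adjustment. The median log2 change over all genes was -0.02, and libraries of the 2 ages did not overlap for 1416 genes (18.8%). In the other excitatory neurons 2508 of 13163 genes were called (19.1%) (1057 higher, 8.03%), and 626 genes were called in both, which is 60.4% of the calls in Exc_14 and 24.96% of those in the other neurons. The latter share also counts genes that were not tested in Exc_14 and so could not be shared. The call held under every alternative that tested the gene for 37 of the 76 genes named for this comparison. With the number of Exc_14 cells made equal in every library, at 10 cells, 276 of the 3269 genes that could then be tested were called. With the 2 cocaine libraries of 15 days in the place of the 6 saline libraries, 615 genes were called. So small a P60 group can lose calls at a similar change, so the size of the change is given with each call lost there below. With equal numbers the calls of Btg2, Cd24a, Cdh13, Crmp1, Gria4, Hmgn1, Rspo2, Synpr, Tbr1 and Ube2d3 were lost among the genes named below.

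Ass1, argininosuccinate synthase of the urea and nitric oxide cycles, gave the clearest rise. Its level was 8.45, 19.8 and 15.4 CPM at P21 and 136, 95.9, 133, 148, 134 and 105 CPM in the saline libraries (log2 change 3.02 ± 0.23 SE, adjusted p = 4.53e-10), so the ages were widely apart. Myh14, a non-muscle myosin heavy chain, rose from a mean of 0.469 to 13.9 CPM, but the P21 libraries held 1 UMI of it in all, and the ratio of 33.7 has a 95% counting interval of 5.88 to 1345. The HMG-box gene Tox2 went from 2.31 to 15.0 CPM (2.23 ± 0.42) and the glutathione transferase gene Gstt1 from 11.4 to 55.4 CPM (2.21). Further rises named by the rule were Tpd52l1, from 38.5 to 155 CPM, the polycomb-like gene Phf1, from 5.57 to 28.6 CPM, the HMG-box gene Bbx, from 3.63 to 21.1 CPM, and Tnnt2, a troponin T gene, from 8.69 to 33.2 CPM. The inducible heat shock protein gene Hspa1a rose from 9.11 to 32.1 CPM. It was the only one of 13 heat shock genes tested to be called, where 5.38% of all genes tested rose. Fhad1, BC030499 and the MHC class I gene H2-T22, whose 3′ end is nearly that of H2-T10, rose as well.

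Npy, which encodes neuropeptide Y, and Dmkn, an epidermal secreted protein, had the largest fitted log2 falls of the named genes. Npy stood at 1229, 503 and 503 CPM at P21 and at 41.3, 0, 41.5, 71.2, 19.6 and 24.9 CPM in the saline libraries 2, 3, 5, 7, 11 and 12 (log2 change -4.66 ± 0.60 SE, adjusted p = 0.00193). Dmkn stood at 33.8, 30.3 and 36.5 CPM at P21 and at 0, 0, 2.18, 1.92, 0.456 and 0 CPM (-4.32 ± 0.38, adjusted p = 6.87e-09), or 73 UMIs against 3, a ratio of 62.2 with a counting interval of 20.5 to 308. No saline library reached the lowest P21 library for either gene. With the cocaine libraries of 15 days as the P60 group the change of Npy was -5.07 with an adjusted p of 0.0655.

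The proteolipid gene Nnat fell from 848, 1640 and 1154 CPM at P21 to a mean of 141.1 ± 26.9 CPM (-2.99 ± 0.16, adjusted p = 8.67e-10). Marcksl1, an actin-regulating protein of growing neurites, fell from 210, 179 and 250 CPM to 23.7 ± 8.53 CPM (-2.96 ± 0.18, adjusted p = 1.04e-12). Cd24a fell from 135, 238 and 217 CPM to 38.6 ± 21.7 CPM (-2.21 ± 0.31, adjusted p = 0.000834), and with equal cell numbers its change was -1.42 with an adjusted p of 0.295. These were 3 of the 10 genes called of 28 tested in the list of axon growth and immature neuron genes. All 10 fell and none rose, with a list median of -0.36, where 8.35% of all genes tested fell.

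The other 7 of that list were Dpysl5 (41.8 to 13.8 CPM), Tubb2b (302 to 115 CPM), Dpysl2 (1024 to 506 CPM), Marcks (353 to 184 CPM), Ncam1 (395 to 231 CPM), Crmp1 (165 to 95.1 CPM) and Dclk1 (585 to 347 CPM), which act on tubulin, membrane and adhesion in extending neurites. Mapt, the tau gene, had a log2 change of 0.57 and Stmn1 one of 0.35, both under the fold asked for. Of 26 axon guidance genes 4 fell and none rose, where 8.35% of all genes tested fell, Sema3c, Nrp1, Efnb3 (92.5 to 43.9 CPM) and Plxna1. The call of Plxna1 was lost on leaving out any of 8 single libraries, for example at -0.45 and an adjusted p of 0.198 without P21 library 1, that of Sema3c at -0.85 and 0.0504 without P21 library 2, and that of Nrp1 at -0.50 and 0.407 in cells closest to the Exc_14 mean.

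**Figure D2:**
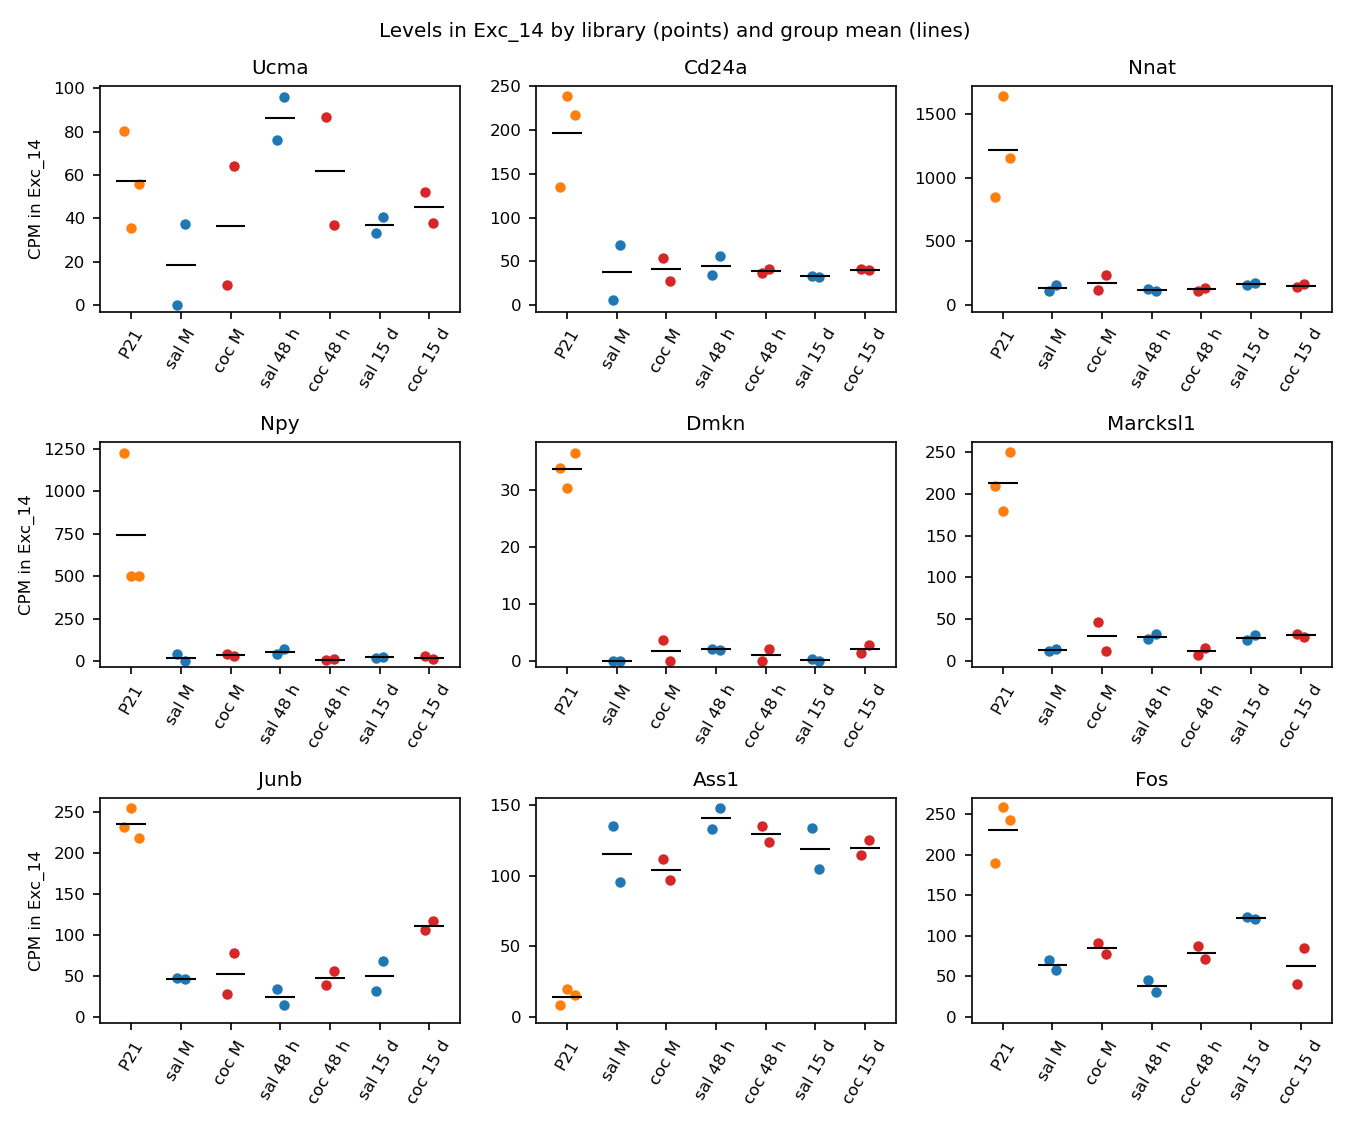
Levels of 9 genes in Exc_14 cells in CPM (linear vertical axes), with 1 point per library and a line at each group mean, for P21 and for saline and cocaine at maintenance (M), 48 h and 15 days. Nnat, Npy, Dmkn, Marcksl1 and Junb lie higher in all 3 P21 libraries than in any P60 library, Ass1 lies lower, and Ucma overlaps between the ages.

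Immediate early genes, which neurons switch on within minutes of activity or stress, were lower at P60. Of 19 tested, 11 fell and none rose, against 8.35% falling among all genes, and 18 had a negative change, with a median of -0.92. Junb was at 232, 256 and 219 CPM at P21 and 47.2, 46.4, 34.9, 15.4, 32.4 and 68.8 CPM in saline libraries (-2.40 ± 0.23, adjusted p = 1.14e-05), without overlap. Ier2 fell from 40.8 to 6.28 CPM, the orphan nuclear receptor genes Nr4a3 from 55.6 to 15.4 and Nr4a1 from 71.9 to 31.3 CPM, the pentraxin gene Nptx2 from 34.4 to 11.6 CPM and the phosphatase gene Dusp1 from 45.2 to 20.1 CPM. Fosl2, Btg2, Jund, Egr1 (219 to 117 CPM) and Fos (230 to 75.01 CPM, -1.39, adjusted p = 0.0295) completed the list. Some of these calls were lost in other fits. That of Fos was lost on leaving out any P21 library (adjusted p of 0.0526, 0.105 and 0.0943 without libraries 1, 2 and 3), saline library 2 (0.0522) or 3 (0.0579). That of Egr1 was lost without P21 library 2 (-0.60, 0.100), P21 library 3 (-0.78, 0.0636) or saline library 3 (-0.69, 0.0508), and that of Fosl2 without P21 library 2 (-1.02, 0.114). In cells closest to the Exc_14 mean Fos (0.0951) and Egr1 (0.0587) were not called, in cells classed excitatory Fos was not (0.0672), and with the 15 day cocaine libraries as the P60 group Jund was not (-0.29, 0.385). The mitochondrial share given above and the Hspa1a level moved with age too, in opposite directions, and their part in the fall was not tested.

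Some of the fallen genes belong to other cell types. Mbp, a myelin protein gene, went from 297 to 86.1 CPM (-1.78). Sparc, a matrix protein of glia and vessels, fell from 45.8 to 1.51 CPM and the myelin gene Cldn11 from 45.1 to 3.54 CPM, and both were too low to be tested when the members were narrowed to cells classed excitatory or to cells closest to the Exc_14 mean. The oligodendrocyte and endothelial marker sums given above were higher at P21 as well. In all, 976 genes were called in cells classed excitatory and 882 in cells closest to the mean, against 1036 in all members. The mean used was that of P60 Exc_14, so the latter set keeps the P21 members most like adult cells. That choice can itself shrink a difference between the ages, here and wherever this set is used.

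Transcription factors moved both ways, with 3 rises and 4 falls of 21 tested, where 5.38% of all genes rose and 8.35% fell. Rorb rose from 19.3 to 38.7 CPM, Etv1 from 22.5 to 42.5 CPM and Id2, an inhibitor of basic helix-loop-helix factors, from 260 to 453 CPM. Among the falls, Bcl11b went from 26.7 to 10.9 CPM and Tbr1 from 55.2 to 33.7 CPM, and Nr4a3 was another. Leaving out P21 library 1 ended the call of Etv1 (0.73, adjusted p = 0.0571), P21 library 2 those of Etv1 (0.95, 0.0768) and Tbr1 (-0.67, 0.0727), and P21 library 3 those of Bcl11b (-0.77, 0.130) and Tbr1 (-0.71, 0.0583). In cells closest to the Exc_14 mean Rorb (0.89, 0.0667) and Tbr1 (-0.63, 0.0577) were not called, and with the 15 day cocaine libraries as the P60 group Bcl11b was not (-0.95, 0.0593). With Rorb and Etv1, the list of layer 5 intratelencephalic markers had 3 rises and 1 fall of 6 tested, beside 5.38% and 8.35% over all genes. The third, Parm1 (12.9 to 21.3 CPM), and the fall, Rspo2 (93.0 to 58.5 CPM), each lost the call without several single libraries, at adjusted p up to 0.250 for Parm1 and 0.104 for Rspo2.

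Of the layer 2/3 list Calb1 and Cdh13 fell among 4 tested (8.35% over all genes), and both calls were lost in several fits (Calb1 -0.73 with an adjusted p of 0.0746 without library 1 and -0.71 with 0.116 without library 2, -0.63 with 0.120 in cells closest to the Exc_14 mean and -0.11 with 0.834 with the 15 day cocaine libraries as the P60 group, Cdh13 -0.45 with 0.0935 without P21 library 3 and -0.65 with 0.0524 in cells closest to the mean). The change of Cdh13 also fell under 1.5-fold, at -0.51 to -0.58, without P21 library 2 or saline library 2, 3 or 5. Penk, the enkephalin precursor gene, fell from 36.5 to 6.34 CPM (-1.99) and Rprm from 39.7 to 8.80 CPM (-1.62). Synpr, a vesicle protein gene of the claustrum-like list, rose from 21.9 to 54.4 CPM (1.25, but 1.61 with an adjusted p of 0.0733 in cells closest to the mean), and Gng2 fell from 353 to 209 CPM. Drd1a, the only layer 6b marker abundant enough to be tested, was not called, and no near-projecting marker was abundant enough to be tested.

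Of the synaptic genes 2 of 25 fell and none rose, a share close to the 8.35% of all genes that fell. They were Ddn from 90.6 to 51.7 CPM and Cplx2 from 73.7 to 26.2 CPM, the latter at -0.19 and an adjusted p of 0.698 in cells closest to the Exc_14 mean. Snap25, the vesicle fusion gene, went from 2141 to 3060 CPM, a log2 change of 0.56 that lies under the fold asked for. Among 18 glutamate receptor genes Grm3 (26.7 to 49.5 CPM) and Gria4 (42.2 to 67.6 CPM) rose, and Grik3 (44.0 to 22.6 CPM) and Grin1 (107 to 62.7 CPM) fell, again beside 5.38% rising and 8.35% falling over all genes. The call of Grm3 was lost without P21 library 2 (0.71, adjusted p = 0.0729) or 3 (0.70, 0.0783), and that of Grin1 without P21 library 1 (-0.38, 0.179) or saline library 11 (-0.58, 0.0544), and without saline library 7, at -0.58, its change was under the fold asked for. With the 15 day cocaine libraries as the P60 group Grm3 (0.76, 0.0748), Grik3 (-0.44, 0.168) and Grin1 (-0.44, 0.159) were not called. None of 15 neuromodulator receptor genes was called, and Cnr1 had a change of -0.37 (380 to 285 CPM). Of 35 voltage-gated channel genes Kcnip3, a channel-interacting calcium sensor, was called (40.4 to 62.7 CPM, 0.68), and not without P21 library 2 (0.59, 0.0882) or 3 (0.64, 0.0661).

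A list of epigenetic regulators that the study chose on these samples had 3 rises and 5 falls of 11 tested (5.38% and 8.35% over all genes), which is no independent evidence of their direction. The arginine methyltransferase gene Prmt1 rose from 111 to 237 CPM and Ezh1 from 17.5 to 29.8 CPM, with Hspa1a, listed there too, as the other. The DNA methyltransferase gene Dnmt3a fell from 100 to 36.1 CPM (-1.34), Hmgn1, a nucleosome-binding protein gene, from 101 to 44.7 CPM (-1.11), and Yeats4, Mbd3 and Ube2d3 fell as well. Ezh1 lost its call without P21 library 1 (0.79, adjusted p = 0.0517), P21 library 2 (0.52, 0.217) or saline library 11 (0.75, 0.0538), Mbd3 without P21 library 1 (-0.72, 0.0696) and Yeats4 without P21 library 2 (-1.46, 0.0542). With the cocaine libraries of 15 days as the P60 group, the changes of Hmgn1 and Yeats4 turned to 0.0123 and 0.0338, and Ube2d3 (-0.07, 0.788) and Mbd3 (-0.38, 0.348) lost their calls, so that 4 of the 5 falls were not called. Ezh1 was not called there (0.72, 0.105) nor by DESeq2 (0.0965).

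Genes of oxidative phosphorylation had a median change of 0.19, with 65 of 82 positive. No member was called higher and 3 were called lower, a smaller share than the 8.35% over all genes. They were Ndufab1 (539 to 183 CPM), Uqcrfs1 (140 to 41.9 CPM) and Cox5a (731 to 165 CPM). Cox5a stood at 1267, 536 and 388 CPM in P21 libraries 1 to 3, at 195, 198, 109, 82.7, 99.0 and 305 CPM in saline libraries 2, 3, 5, 7, 11 and 12, and at 719 and 647 CPM in cocaine libraries 9 and 10. The cocaine libraries of 15 days thus lay in the P21 range, and with them as the P60 group the change of Cox5a was -0.03 (adjusted p = 0.982), that of Uqcrfs1 -0.31 (0.817) and that of Ndufab1 turned to 0.155. The call of Ndufab1 was lost without any 1 of 8 libraries (adjusted p 0.0710 to 0.134), and that of Cox5a without P21 library 1 (0.0947) or 2 (0.0547) or saline library 3 (0.0529), 5 (0.0557), 7 (0.0572) or 11 (0.0652). Pfn1, the actin-binding profilin (222 to 38.1 CPM), and Tmem93 (175 to 32.3 CPM) behaved alike, with changes of -0.69 (adjusted p = 0.300) and -0.14 (0.743) against the cocaine libraries of 15 days. Tmem93 also lost its call without P21 library 1 (-1.88, 0.0671) or 2 (-2.22, 0.0602). Hist1h2bc, a histone gene, fell from 53.0 to 8.08 CPM.

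The Npy UMIs at P21 came from a minority of the cells. Of 229 P21 members 44 had at least 5 Npy UMIs (16 of 56 in library 1, 12 of 84 in library 2 and 16 of 89 in library 3, or 28.6, 14.3 and 18.0%), against 9 of 750 P60 members (1.20%). The limit of 5 UMIs was set after the values had been seen. The highest cell of each P21 library had 419, 86 and 52 Npy UMIs, while 39.3, 61.9 and 57.3% of the cells had none. Outside Exc_14 such cells were common in Exc_12 (22.7% at P60 and 28.5% at P21) and Exc_13 (23.7 and 34.8%) and rare in Exc_7 (0.262 and 5.65%).

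The Npy-rich P21 cells differed from the other P21 members in several genes that separate Exc_12 and Exc_13 from Exc_14 in adults. Summed over cells, they had more Nnat (2755 against 802 CPM), Osr1 (38.2 against 6.43 CPM) and Oprk1 (44.6 against 12.9 CPM) and less Cd24a (50.9 against 238 CPM). For Nnat, which fell with age in Exc_14, both P21 sets lay above P60 Exc_12 (696 CPM) and Exc_13 (654 CPM) in the sum. In P21 library 1 alone the other members stood at 271 CPM, below both. Tubb2b (374 against 283 CPM) and Figf (127 against 106 CPM) went the other way. These 2 genes were lower in P60 Exc_12 (84.5 and 136 CPM) and Exc_13 (41.6 and 60.8 CPM) than in P60 Exc_14 (115 and 162 CPM). Cdh9 was higher in the sum (23.3 against 10.5 CPM) but lower in P21 library 3 (6.93 against 14.1 CPM). Ucma (46.7 against 59.6 CPM) and Hpcal1 (163 against 224 CPM) were lower in the sum, but stayed above the P60 levels of Exc_12 (19.2 and 40.6 CPM) and Exc_13 (8.85 and 16.3 CPM). By library the gaps were uneven. Osr1 stood at 59.5 against 6.10, 9.24 against 6.14 and 27.7 against 7.03 CPM in P21 libraries 1 to 3, with 13 of its 18 UMIs in library 1, and Ucma was not lower in library 2 (36.9 against 35.3 CPM, 4 UMIs in the Npy-rich cells). Cd24a was detected in 12 of 44 Npy-rich cells (27.3%) and in 112 of the other 185 (60.5%), while their median UMI counts were 10811 and 9372. Of the Npy-rich cells 22 were closest to the P60 mean of Exc_14 and 22 to that of Exc_12 or Exc_13, and of the others 139 of 185 were closest to Exc_14 and 20 to Exc_12 or Exc_13. Slc17a7 stood at 461 and 566 CPM, and the GABA neuron genes Gad1 (2.12 and 1.17 CPM), Gad2 (2.12 and 2.34 CPM) and Slc32a1 (0 and 0.584 CPM) were near 0 in both. These values pool cells of 3 libraries and carry no test. They set P21 cells beside P60 levels of Exc_12 and Exc_13, so age and cluster cannot be told apart in them.

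**Figure D3:**
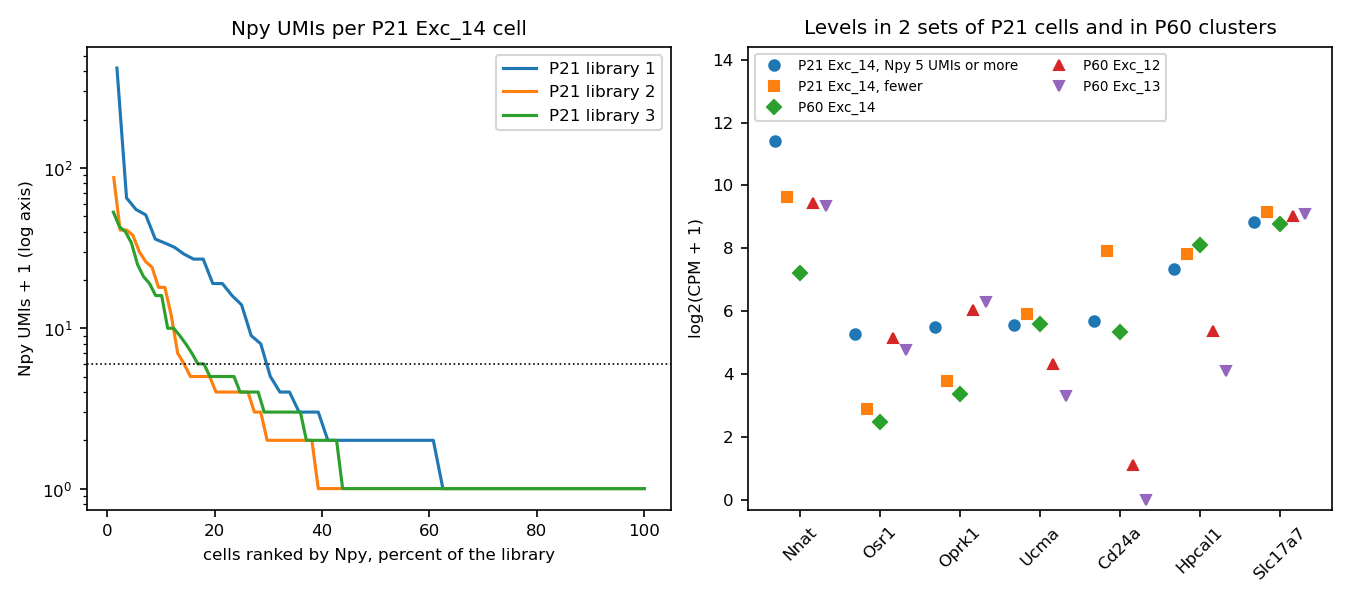
Left, Npy UMIs + 1 (log axis) of each P21 Exc_14 cell, ranked from highest to lowest in percent of the cells of its library, with a dotted line at 5 UMIs. Right, log2(CPM + 1) of 7 genes in P21 Exc_14 cells with at least 5 Npy UMIs and in the other P21 Exc_14 cells. P60 Exc_14, Exc_12 and Exc_13 are shown beside them. Osr1 and Oprk1 of the Npy-rich cells lie on the side of Exc_12 and Exc_13, and Ucma, Cd24a and Hpcal1 nearer to P60 Exc_14. In these sums over libraries Nnat lies above P60 Exc_12 and Exc_13 in both P21 sets, although the other members of P21 library 1 lay below both. Exc_12 and Exc_13 are shown at P60 only, so age and cluster cannot be told apart.

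To ask which age changes differed between Exc_14 and the other excitatory neurons, both were put in 1 model with a term for the difference. Of 11464 genes, 35 were called (0.305%), 20 with a higher (0.174%) and 15 with a lower (0.131%) log2 change in Exc_14. Most of the 1036 age changes in Exc_14 were thus not shown to differ from those in the other neurons, and 20 and 16 genes were called without P21 libraries 1 and 2. Cd24a fell less in Exc_14, from 197 to 38.6 CPM where the other neurons went from 74.8 to 5.98 CPM (difference 1.34 ± 0.17 SE, adjusted p = 1.50e-07). Dmkn fell more, from 33.5 to 0.760 CPM against 18.6 to 6.43 CPM (-3.94 ± 0.54, adjusted p = 1.13e-06). Against the 3 most similar clusters alone, 11 genes were called, and of the 13 named genes tested there Hbb-b2 and Blnk passed. The differences of Cd24a (0.40, adjusted p = 0.531), Dmkn (-2.45, 0.264), Tox2 (0.75, 0.796), Col23a1 (0.79, 0.829), Ifi27l1 (0.65, 0.407), Slc5a5 (0.76, 0.411), Rgs20 (1.33, 0.275), Nptx2 (-0.42, 0.745), Pcdh7 (-1.15, 0.381), Cdh4 (-1.34, 0.198) and Qpct (-1.87, 0.0776) did not, so they were not shown against the clusters most like Exc_14.

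Members of the fixed lists were among the calls, with Etv1 at 1.25 ± 0.25 and Cplx2 at -1.05 ± 0.21 for the difference in log2 change. Tac1, the gene of the substance P precursor, kept its call under every alternative that tested it, while DESeq2, the comparison with the 3 most similar clusters and the fits without saline library 5 or 11 gave no test of it. It rested on few molecules, with 2.31 ± 0.862 CPM at P21 and 5.15 ± 6.80 CPM at P60 in Exc_14 and 3.91 ± 4.07 and 0.244 ± 0.293 CPM in the other neurons (4.58), and it was too low to be tested in Exc_14 alone. The limit of 3 counts in a P21 library corresponds to 3.95 to 4.22 CPM. Slc5a5, the sodium iodide symporter gene, went from 13.7 to 49.1 against 17.4 to 24.9 CPM (1.25), the interferon-inducible gene Ifi27l1 from 27.1 to 91.4 against 52.1 to 69.2 CPM (1.33), and the collagen gene Col23a1 from 5.44 to 9.05 against 9.54 to 2.48 CPM (2.48). Tox2 rose in Exc_14 where the others went from 10.7 to 9.41 CPM (2.61), and Hbb-b2, a haemoglobin gene of red blood cells, went from 11.9 to 8.73 CPM where the others went from 134 to 15.9 CPM (2.24, not called by DESeq2, 2.70 with an adjusted p of 0.0960). Calls were lost for Tox2 without P21 library 2 (2.27, adjusted p = 0.104) or 3 (2.41, 0.0514), for Slc5a5 without P21 library 2 (1.2955, 0.0630) or 3 (1.04, 0.186), and for Col23a1 without saline library 12 (2.23, 0.0558). Rgs20, from 4.56 to 11.2 against 33.1 to 28.6 CPM (1.68), lost its call without any P21 library (adjusted p 0.136 to 0.324) or saline library 7 (0.0542), 11 (0.0922) or 12 (0.109).

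On the lower side, the adhesion genes Cdh4 (22.0 to 5.02 CPM, others 15.8 to 12.4 CPM, -1.65) and Pcdh7 (12.3 to 2.90 CPM, others 39.2 to 31.3 CPM, -1.75) and the synaptic pentraxin gene Nptx2 (34.4 to 11.6 CPM, others 33.4 to 28.3 CPM, -1.28) fell more in Exc_14. The glutaminyl cyclase gene Qpct went from 11.4 to 5.31 CPM where the others went from 17.8 to 24.96 CPM (-1.84), and the adaptor gene Blnk from 24.3 to 18.5 against 11.3 to 23.7 CPM (-1.45). The channel gene Accn4 and 2010002N04Rik rested on few molecules, with ratios of P21 to P60 of 10.2 (counting interval 2.76 to 56.4) and 33.2 (4.99 to 1411). Without P21 library 1 the calls of Cdh4 (-1.42, adjusted p = 0.180), Nptx2 (-1.20, 0.0634), Accn4 (-3.28, 0.410) and Qpct (-1.73, 0.188) were lost. Without P21 library 2 those of Pcdh7 (-1.46, 0.477), Qpct (-1.97, 0.0909) and 2010002N04Rik (-3.50, 0.288) were lost, and without P21 library 3 those of Pcdh7 (-1.71, 0.186), Qpct (-1.85, 0.0937) and 2010002N04Rik (-3.95, 0.0617). Leaving out saline library 11 ended the calls of Pcdh7 (0.144), Qpct (0.129) and 2010002N04Rik (0.0544), and saline library 12 those of Pcdh7 (0.0528) and 2010002N04Rik (0.0534). That of Pcdh7 was also lost without saline library 3 (0.0559), 5 (0.0751) or 7 (0.0975). In cells closest to the Exc_14 mean, Accn4 and Pcdh7 turned to 0.695 and 0.0430, and Blnk (-0.25, 0.960), Qpct (-0.47, 0.960), 2010002N04Rik (-3.02, 0.641), Cdh4 (-1.32, 0.249) and, of the higher side, Rgs20 (1.86, 0.168) lost their calls.

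**Figure D4:**
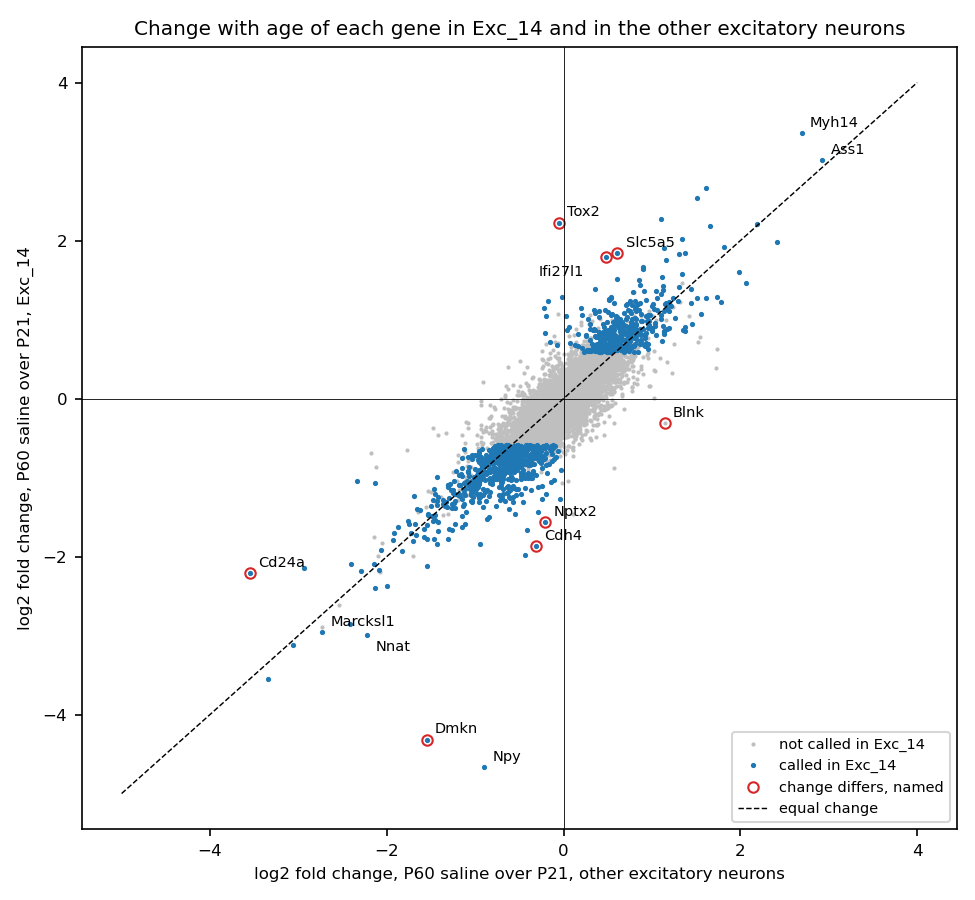
Log2 change from P21 to P60 saline of each gene tested in both, in the other excitatory neurons (horizontal axis) and in Exc_14 (vertical axis), with called genes of Exc_14 in blue and those named genes of the difference test that were tested in both ringed in red. The dashed line marks equal change, and Cd24a and Tox2 lie above it while Dmkn, Cdh4 and Nptx2 lie below.

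Cocaine against saline, compared within the 3 time points, gave 1 called gene of 8236 in Exc_14 (0.0121%). This was Rab11a, a GTPase of recycling endosomes, which lay outside the naming rule and is named because it was the only call. It stood at 64.9, 89.9, 76.4, 80.8, 95.4 and 140.9 CPM in saline libraries 2, 3, 5, 7, 11 and 12 and at 115, 149, 84.4, 117, 226 and 224 CPM in cocaine libraries 1, 4, 6, 8, 9 and 10 (0.66 ± 0.12 SE, adjusted p = 0.00872, edgeR's quasi-likelihood test). The groups overlapped over the time points. By edgeR 596 genes had an unadjusted p under 0.05, and DESeq2 called 0 genes, with 239 under 0.05. Without saline library 12, 60 genes were called, and leaving out P60 library 2, 4, 5 or 8 left 0.

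At maintenance no gene was called (0.0%, 461 genes with an unadjusted p under 0.05 by edgeR and 162 by DESeq2, which called 0), and none at 48 h of withdrawal (0.0%, 440 and 158 genes, DESeq2 0). Each of these contrasts has 2 libraries a group. The libraries held 10 to 42 Exc_14 cells at maintenance, 28 to 57 at 48 h and 95 to 132 at 15 days. Equal cell numbers were run for cocaine only over the 3 time points, so the numbers of calls cannot be compared between time points. Averaged over the 3 time points, no gene had a cocaine effect called as different from that in the other excitatory neurons (0 of 11815 by edgeR, 565 with an unadjusted p under 0.05, DESeq2 0 and 249). This difference was not tested at single time points. In the marker lists, the receptors and the transcription factors no member was called over the 3 time points, at maintenance or at 48 h.

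After 15 days of withdrawal 142 genes were called (1.72%), 139 higher (1.69%) and 3 lower (0.0364%) in the cocaine libraries. The libraries of 3082 genes (37.4%) did not overlap, beside 32.1% at maintenance and 34.5% at 48 h, where no gene was called. With 2 libraries a group, lack of overlap thus tells little about a change. The rises were led by Fbxl15, a subunit of a ubiquitin ligase, at 4.11 and 17.8 CPM in saline libraries 11 and 12 and 46.8 and 43.6 CPM in cocaine libraries 9 and 10 (2.12 ± 0.31, adjusted p = 0.000139). Tomm20, a receptor of mitochondrial protein import, stood at 48.4 and 75.2 CPM against 204 and 151 CPM (1.58 ± 0.18, adjusted p = 7.84e-07). The histone genes H2afx (9.75 to 35.4 CPM) and H2afj (10.2 to 33.5 CPM), the dUTPase gene Dut (22.4 to 65.6 CPM) and the RNA helicase gene Ddx28 (5.97 to 23.2 CPM) were also among the 12 largest. Yjefn3 (10.0 to 38.6 CPM), Akr7a5, Ap4s1, Zfp580, Zfp593 and Tmem203 rose too. The calls of Fbxl15, Yjefn3, H2afx, Dut, Tomm20, Uqcrfs1 and Nrgn held under every alternative that tested them, 7 of 20 named genes.

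The calls of the other named genes were each lost on leaving out at least 1 library, several of them with more than 1. The calls of genes not named were not followed gene by gene. Without saline library 11, 35 genes were called, without cocaine library 9, 43, and without saline library 12, 317. Lost without cocaine library 9 were H2afj (1.38, adjusted p = 0.0766), Akr7a5 (1.40, 0.0663), Ap4s1 (1.24, 0.382), Zfp580 (1.20, 0.647) and Tmem203 (1.36, 0.219), and without cocaine library 10 Zfp593 (1.73, 0.0856). Lost without saline library 11 were Ddx28 (1.43, 0.0690), Akr7a5 (0.99, 0.166), Ap4s1 (1.38, 0.0574), Zfp580 (0.93, 0.705), Zfp593 (1.21, 0.712) and Tmem203 (1.24, 0.141).

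Few members of the gene lists were among the calls. Nrgn, a calmodulin-binding protein of dendritic spines, rose from 917 to 1647 CPM (0.90) and Rtn1, a reticulon gene, from 4268 to 6381 CPM (0.63). Of the epigenetic list Yeats4 (44.7 to 95.2 CPM) and Ube2d3 (122 to 190 CPM) rose, and of 82 oxidative phosphorylation genes Uqcrfs1 (45.9 to 108 CPM, 1.28) did, where 1.69% of all genes rose. Without cocaine library 9 Rtn1 (0.57, adjusted p = 0.209), Yeats4 (1.05, 0.0681) and Ube2d3 (0.68, 0.214) were not called, nor without saline library 11 (0.44 with 0.459, 0.66 with 0.260 and 0.43 with 0.718), and Ube2d3 also not without cocaine library 10 (0.71, 0.0886). The neuropeptide gene Cck was at 567 and 2163 CPM in saline and 4571 and 3989 CPM in cocaine libraries and was not called (1.71, adjusted p = 0.487).

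The 3 falls were Fos, the growth arrest gene Gadd45g and the dynamin gene Dnm2. Fos was at 123 and 121 CPM in saline libraries 11 and 12 and 40.3 and 85.6 CPM in cocaine libraries 9 and 10 (-0.92 ± 0.21, adjusted p = 0.0139), and it was the only called gene of 20 immediate early genes tested, where 0.0364% of all genes fell. Without cocaine library 9 its change was -0.46 (0.865) and without saline library 11 -0.89 (0.0884), and the fall was not called by DESeq2 (0.142). Gadd45g went from 77.2 to 44.5 CPM and lost the call without cocaine library 9 (-0.38), saline library 11 (-0.86, 0.0574) or saline library 12 (-0.63, 0.130). Dnm2 went from 18.6 to 7.60 CPM and lost it without any of the 4 libraries (adjusted p 0.0595 to 0.532).

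The 139 genes higher after 15 days of cocaine were higher in other cells of the same libraries too. Their mean log2(CPM + 1) in Exc_14 was 6.46 and 6.33 in cocaine libraries 9 and 10 and 5.06 and 5.76 in saline libraries 11 and 12, while the 8 libraries of the earlier time points had 4.97 to 5.52. In the other excitatory neurons it was 6.41 and 6.28 against 5.18 and 5.82, with 139 of 139 changes positive, and in non-neuronal cells 5.79 and 5.69 against 4.70 and 5.21. At P21 the mean in Exc_14 was 6.72, 6.02 and 5.94. The genes were chosen for their difference between the 15 day libraries, so these levels are a description. The test of the other excitatory neurons called 94 of 13053 genes (0.72%), all higher, and 54 were shared, 38.0% of the calls in Exc_14 and 57.4% of those in the other neurons. Genes tested only in the other neurons could not be shared. The library a cell came from thus moved with these genes in neurons and non-neuronal cells alike, and its part in the cocaine comparison was not tested.

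**Figure D5:**
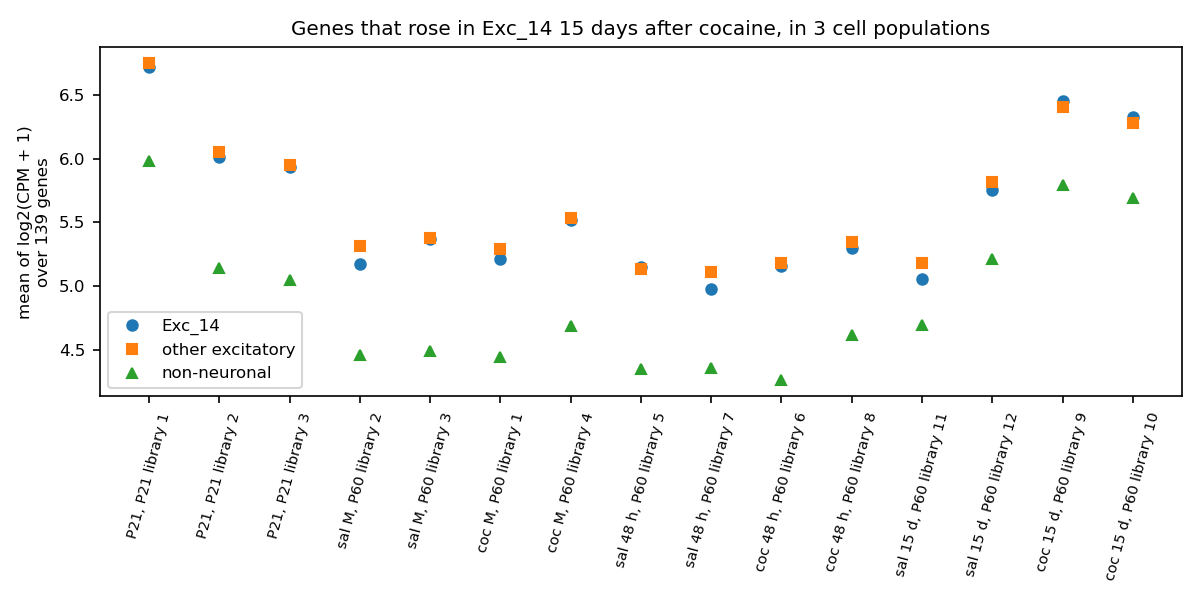
Mean log2(CPM + 1) over the 139 genes called higher after 15 days of cocaine withdrawal, by library, in Exc_14, the other excitatory neurons and the non-neuronal cells. The cocaine libraries of 15 days and P21 library 1 lie highest in all 3 cell groups, and saline library 12 lies above saline library 11.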

How the data were processed

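Single cells of dissociated PFC were captured in droplets and sequenced in 15 libraries. The authors aligned the reads to mm9 with Cell Ranger, and the deposited tables hold raw UMI counts per gene and cell for Ensembl genes of NCBIM37. Per the labels, Seurat 2.1.0 was also used. The deposited cell annotation gives the cluster, the class, the counts and the mitochondrial share of each cell as a fraction. Before clustering the authors removed cells with a high mitochondrial share or with unusually many genes as likely doublets. No doublet caller was run here, and a doublet with another type would appear in the marker sums.

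Counts of Exc_14 cells were summed per library (at least 10 cells), after leaving out 13 mitochondrial and 143 ribosomal protein genes, 25989 of 26145 genes being kept and 8.07 to 9.72% of Exc_14 UMIs left out. Sums were tested in edgeR 4.0.16 (R 4.3.3) by the quasi-likelihood test with filterByExpr, TMM and robust dispersion. A gene was called at a Benjamini-Hochberg adjusted p under 0.05 and over 1.5-fold, and DESeq2 1.42.0 served as an alternative. The other excitatory neurons were summed per library in the same way, and the difference of the age changes was tested in 1 model over both. Shares and UMI counts were compared by exact permutation in scipy 1.17.1. Levels across clusters are means over libraries and were not tested. The genes named were the 15 with the highest ratio to the mean of the other clusters and the 10 with the highest ratio to the next cluster, the 10 lowest, up to 12 called rises and 12 falls per comparison whose groups did not overlap, up to 8 each way for a difference of changes, and called members of the gene lists. The members and the lists were chosen with earlier results of these data known. Positions are those of mm9, and start regions were read from RefSeq, GRCm38.p6. The steps were tested on simulated data. Alternatives comprised another tool, scaling, low-count filter and cell minimum, other P60 libraries, summed P21 libraries and the removal of each library. The narrower sets of cells and the use of the 15 day cocaine libraries as the P60 group were chosen after seeing the data. Cells closest to the Exc_14 mean were those closest to its P60 mean, which favours P21 cells that resemble adult ones. Intervals cover counting error only. Some genes are not reported here.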

Additional observations from a re-analysis of the deposited data

Results flagged for a closer look

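Of 54 sets of 6 P60 libraries examined for a library far from the others, 3 held one. The rule was Dixon's ratio of gap to range, with a limit meant to flag about 1 in 20 sets by chance. Nell1 stood at 129.7 CPM in saline library 2, the library with 10 Exc_14 cells. Ntng1 was low at 25.2 CPM in cocaine library 8, and Obfc2a was high at 46.1 CPM in cocaine library 6.

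The other results singled out are the named genes whose change from P21 to P60 differed between Exc_14 and the other excitatory neurons by the interaction term of edgeR's quasi-likelihood test. The difference in log2 change was above 0 for Tac1 (4.58), Tox2 (2.61), Col23a1 (2.48), Hbb-b2 (2.24), Rgs20 (1.68), Cd24a (1.34), Ifi27l1 (1.33) and Slc5a5 (1.25). It was below 0 for Dmkn (-3.94), 2010002N04Rik (-3.88), Accn4 (-3.84), Qpct (-1.84), Pcdh7 (-1.75), Cdh4 (-1.65), Blnk (-1.45) and Nptx2 (-1.28). The haemoglobin gene Hbb-b2 is made by red blood cells, and its level in the other neurons was 134 CPM at P21 and 15.9 CPM at P60. Of these 16 genes, 1 (Tac1) kept its call under every alternative that tested it, and against the 3 most similar clusters 11 of the 13 that could be tested lost it.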

How the results depend on the processing

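The age comparison gave 756 (DESeq2) to 1532 (no fold limit) calls under the alternatives other than equal cell numbers (276 of 3269 genes) and the 15 day cocaine libraries as the P60 group (615), and 759 to 1157 with each library left out. Over the 3 time points cocaine gave 2 calls with no fold limit, 0 by DESeq2, 17 with no low-count filter and 4 with equal cell numbers. With each library left out it gave 0 to 60. Maintenance gave 2 calls and 48 h 1 with no low-count filter, and 0 to 2 and 0 to 1 with each library left out. At 15 days DESeq2 called 41 genes, and 35 to 317 were called with each library left out. For the difference in age changes, DESeq2 gave 12 calls, no low-count filter 55, libraries with at least 30 cells 55, and the 3 most similar clusters 11, with 16 to 44 on leaving out each library. For the difference in cocaine effects over the 3 time points, leaving out each library gave 0 to 2. A limit of 30 cells was not run for cocaine outside 15 days, since it leaves 1 saline library at maintenance.

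Changes of sign were few. With the 15 day cocaine libraries as the P60 group, Ndufab1 turned to 0.155, Yeats4 to 0.0338 and Hmgn1 to 0.0123 on the log2 scale, and in cells closest to the Exc_14 mean the differences of Accn4 and Pcdh7 turned to 0.695 and 0.0430. The share difference by age ran from -0.387 to 1.20 points and that by cocaine from 0.565 to 1.47 points with each library left out. The UMI difference by age ran from 5938 to 8532, and that by cocaine from -162 to 1011, with a difference of -173 in mean UMIs. With mitochondrial and ribosomal protein genes kept, Nme1 moved to 2125 CPM. Of the other tests of single genes, 1930 kept direction and call, and 253 kept the direction but lost the call, while 98 levels moved by less than 1 SD. The causes were not tested. Where a lone library stood for a group, it was assumed to vary like the others. No paired analysis was possible because the labels number libraries in 1 series and give groups no shared replicate numbers. With 2 libraries a group at each time point, small changes may be missed.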
